A study of Mus musculus with 12 samples.

Results

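The genes described here encode the proteins of the cytosolic ribosome. Symbols of the Rpl and Rps series, with Rplp0, Rplp1, Rplp2 and Rpsa, matched 80 rows of the deposited table, and 79 of these had at least 1 TPM (transcripts scaled by gene model length to the same total in each library) in at least 3 of the 12 libraries. The 79 members were 32 genes of the small subunit and 47 of the large subunit, out of 18530 genes in all and 12798 tested. Rpl39l was the only symbol below the limit, at 0 to 0.84 TPM and 0 to 7 reads. The lowest member, Rps4l, had 17.6 to 65.1 TPM, so no member lay near the limit. All 79 members had at least 1 TPM in every library, and between 170 and 26617 reads each in a library.

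Poly-A RNA of isolated mouse cardiomyocytes was sequenced in 4 groups of 3 libraries. Of these, 2 groups were mdx and 2 were mdx:Utrn+/-, and each genotype was given either saline or PB1046. All animals carried mdx, the mutation of the dystrophin gene on the X chromosome. The mdx:Utrn+/- animals also had only 1 intact copy of utrophin, the autosomal relative of dystrophin. PB1046, an analog of vasoactive intestinal peptide, was given at a dose the labels call high. The protocol gives 0.75 or 1.5 mg/kg on alternate days, beginning at week 4 and ending at week 12, with collection at week 14, and does not say which dose is called high. No mouse with intact dystrophin is among the groups, and the labels do not say whether a library is 1 animal, so p-values measure the spread between these libraries. Libraries held 7234100 to 25458194 recovered reads. Utrn was 9.82 ± 1.29 TPM (SD, n = 3) in mdx with saline and 4.97 ± 1.51 TPM (SD, n = 3) in mdx:Utrn+/- with saline, lower as labelled. It was 13.8 ± 6.71 and 6.84 ± 2.82 TPM (SD, n = 3 each) in the same genotypes with PB1046. In the fit described below no gene passed the adjusted threshold in any comparison, Utrn included. Cardiomyocyte markers summed to 115382 to 158176 TPM per library over 16 genes, and endothelial markers to 1089 to 8119 TPM over 15 genes.

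The ribosome is built of a small subunit, which reads the messenger RNA, and a large subunit, which joins amino acids. Its proteins are needed in equal numbers, with the stalk proteins P1 and P2 as an exception, and their genes are among the most actively transcribed of any cell. Their messenger RNAs typically begin with a run of pyrimidines, the terminal oligopyrimidine tract, through which the kinase mTORC1 sets how strongly they are translated, so that the level of the messenger RNA and the making of the protein can part. In heart and skeletal muscle, a paralog of 1 protein of the large subunit, Rpl3l, is made alongside Rpl3.

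The longest run of pyrimidines near the annotated start is shown for members that the results below turn on. It need not be the terminal tract itself, since its place relative to the start was not fixed. In each window of 30 bases, 5′ to 3′, the longest run of C and T between 25 bases before and 50 bases after the RefSeq start is in capitals (GRCm38.p6), the first of them where runs tie.
Rps6: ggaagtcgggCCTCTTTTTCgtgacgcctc
Rplp2: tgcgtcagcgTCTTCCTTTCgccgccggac
Rps12: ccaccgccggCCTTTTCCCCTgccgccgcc
Rps27: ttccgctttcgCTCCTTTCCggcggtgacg
Rps27l: ccccgcctccaCTCCTCTCCactcctcccc
Rpl39: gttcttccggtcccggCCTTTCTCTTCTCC
Rpl3l: tggtggggaggCCCCTTCCTaacctgcagg
Rpl22: aatatcagcgctgCTTCTggaatgttccag
Rpl24: ggaagtgacatcaTCTCTgggcgccggggt
The windows are at chr4:86857349-86857378 (minus strand) for Rps6, chr7:141447636-141447665 (plus) for Rplp2, chr10:23787182-23787211 (minus) for Rps12, chr3:90213632-90213661 (minus) for Rps27 and chr9:66946053-66946082 (plus) for Rps27l. Those of Rpl39, Rpl3l, Rpl22 and Rpl24 are at chrX:37085173-37085202 (minus), chr17:24727846-24727875 (plus), chr4:152324413-152324442 (plus) and chr16:55966294-55966323 (plus).
Positions count the start base as 1 and the base before it as -1. The run began at -22 in Rps27l, -10 in Rpl22, -5 in Rplp2, -2 in Rps27 and -1 in Rps6. Downstream of the start it began at 9 in Rps12, 32 in Rpl3l, 33 in Rpl24 and 37 in Rpl39. In Rpl39 it reached the end of the searched stretch, so it may go on beyond it. A second run of the same length began at -12 in Rps27l and at 8 in Rpl22. The run was 10 bases long in Rps6 and Rplp2, 11 in Rps12, 14 in Rpl39, 9 in Rps27, Rps27l and Rpl3l, and 5 in Rpl22 and Rpl24, which are shown as members with a short run.

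Promoter entries were matched for 58 of the 79 members, and for the 10 with more than 1 entry the one with the longest run was taken. A run of 8 or more pyrimidines, at any place in the searched stretch, was found in 47 of the 58 (81.0%). The share was 30.4% of all 27025 genes with an entry, in windows of the same length. The median longest run was 10 bases in members and 6 in all genes. The letters CCGGAAG, the core recognised by factors of the ETS family, searched on both strands from 250 bases before to 50 after the start, were in 24 of the 58 members (41.4%) and in 9.93% of all genes. These are matches of letters in reference sequence, not measured sites.

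The members shared further features that the rule did not use. Their gene models were short, with a median of 703 bases against 2790 bases in all genes tested, from 327 bases in Rps28 to 5134 bases in Rps15a, the only member above the median of all genes. Small nucleolar RNA genes, whose products guide the chemical modification of ribosomal RNA, lay within 29 of the 79 members (36.7%) on the same strand and within 1.96% of all genes tested. Rpl13a held 4 of them (Snord32a, Snord33, Snord34 and Snord35a). The members were spread over 19 chromosomes, with 14 on chromosome 7 and 4 on chromosome X. Rps4l had no intron: its model of 941 bases equalled its span (chr6:148354656-148355596, mm10), and it lay within Tmtc1, a gene of the opposite strand with 576 to 3319 reads. The sources used here do not say whether counting used the strand, so reads of Rps4l and of Tmtc1 cannot be told apart.

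Some entries of the table counted the same reads. Rps27 (1568 to 7108 reads) and Rps27rt (1567 to 7083 reads) occupy nearly the same span on chromosome 3, and their reads differed by 1 to 25 in a library. Rpl34 and Rpl34-ps1 differed by 0 to 4 reads, Rpl26 and Gm15772 by 0 to 1, and Rpl30 and Gm12191 by 0 to 7. With a model of 345 bases in place of 575, the same reads put Rps27rt at a mean of 1310 TPM and Rps27 at 787 TPM. The level of a member in TPM therefore depends on the model it was given. Rps15a, a protein of the small subunit, ranked next to last at a mean of 90.7 TPM, yet had 1548 to 8008 reads per library, near the 1568 to 7108 reads of Rps27. Ribosomal protein genes also have many processed copies in the genome. How reads that match several places were assigned is not given in the sources used here.

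Members were far more abundant per length than most genes. Their median mean level was 853 TPM, against 10.7 TPM for all genes tested, and 20 members had a mean above 1000 TPM while 2 were below 100 TPM. Together they took 5.33% to 8.97% of all TPM in a library, and 2.19% to 3.74% of all reads. Rplp1, an acidic protein of the stalk, was highest at a mean of 2741 TPM, followed by Rpl41, a very small protein of the large subunit, at 2370 TPM, Rps15 at 2138 TPM and Rps29 at 2045 TPM. Rps4l at 42.3 TPM, Rps15a at 90.7 TPM and Rpl22, an RNA-binding protein of the large subunit, at 109 TPM were lowest.

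**Figure D1:**
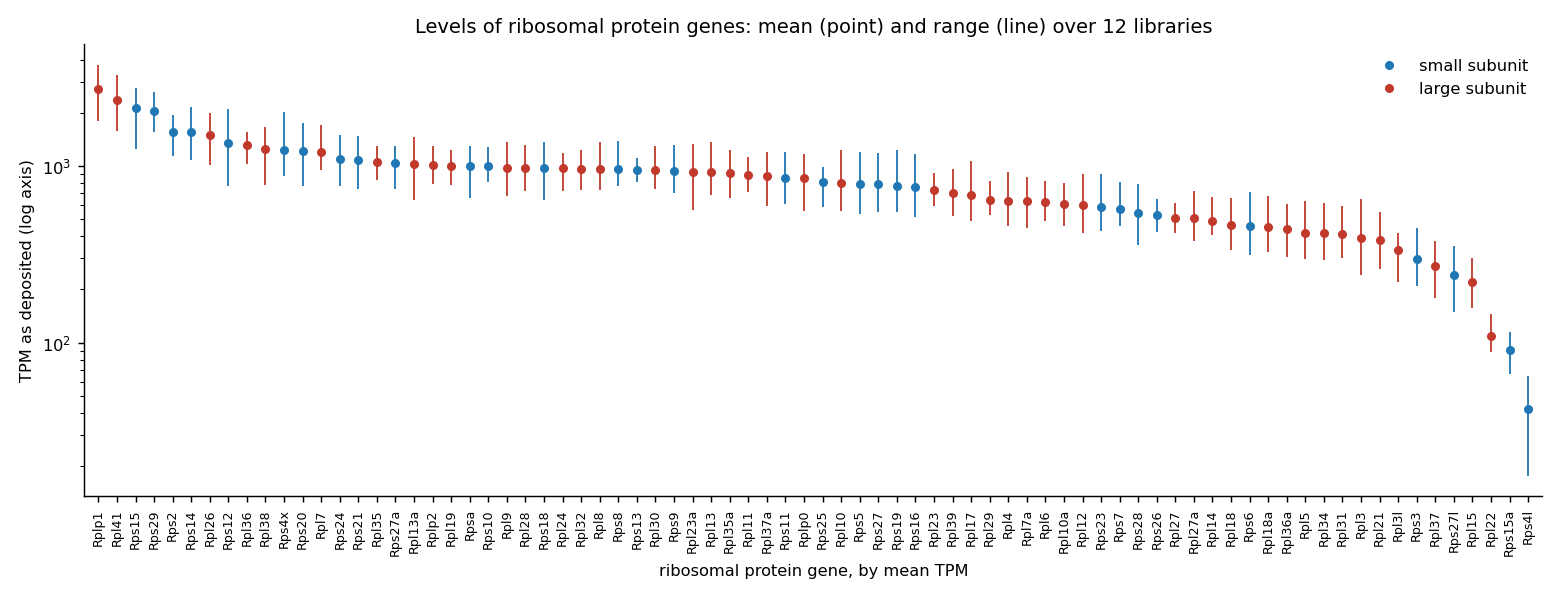
Mean TPM as deposited (points) and lowest to highest library (lines) for each ribosomal protein gene shown, on a log axis, with small subunit genes in blue and large subunit genes in red. Both subunits are spread along the order, from Rplp1 at a mean of 2741 TPM to Rps4l at 42.3 TPM, with a median of 853 TPM.

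The summed level of the members overlapped between all groups. In mdx with saline it was 56716, 84733 and 77473 TPM in replicates 1, 2 and 3, with a mean of 72974 ± 14540 TPM (SD, n = 3). In mdx with PB1046 it was 53253, 70917 and 89706 TPM, with a mean of 71292 ± 18230 TPM (SD, n = 3). In mdx:Utrn+/- with saline it was 60306, 59427 and 68246 TPM, with a mean of 62659 ± 4858 TPM (SD, n = 3). In mdx:Utrn+/- with PB1046 it was 61994, 73991 and 59120 TPM, with a mean of 65035 ± 7888 TPM (SD, n = 3). Both the lowest and the highest of the 12 libraries were mdx with PB1046. Small subunit members summed to 32056 ± 6551, 31345 ± 8587, 27492 ± 2472 and 28538 ± 3414 TPM in the same order of groups (SD, n = 3 each), and the large subunit moved with them.

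The 5 libraries with the highest summed ribosomal protein level were also the 5 with the highest endothelial marker level. They were mdx with saline 2 and 3, mdx with PB1046 2 and 3, and mdx:Utrn+/- with PB1046 2, at 70917 to 89706 TPM of ribosomal proteins and 3125 to 8119 TPM of endothelial markers. The other 7 libraries had 53253 to 68246 TPM and 1089 to 1983 TPM. In these bulk libraries, a change in the kinds of cells collected and a change in RNA per cell cannot be told apart. Fibroblast markers (14 genes) were at 408 to 1942 TPM in the 5 and 354 to 814 TPM in the 7. Macrophage markers (18 listed, 17 tested) were at 160 to 1159 and 219 to 1201 TPM, and smooth muscle and pericyte markers (10 genes) at 175 to 450 and 134 to 300 TPM. Erythroid markers (5 genes) were at 19.1 to 1098 and 36.1 to 290 TPM, and lymphocyte markers (14 listed, 3 tested) at 2.19 to 14.8 and 2.31 to 11.6 TPM. Cardiomyocyte markers were at 115382 to 149603 and 140316 to 158176 TPM. Summed marker levels, here and below, also take in any listed genes below the limit for testing. The scaling factors that even out the bulk of genes between libraries were 1.02 to 1.28 in the 5 and 0.827 to 1.01 in the 7. On the scaled values the members' median deviation from their own means was no longer highest in the 5: it was -0.22 in mdx with PB1046 2, one of the 5, and 0.22 in mdx:Utrn+/- with saline 3, one of the 7. The part of other cell types in the summed level was not tested.

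**Figure D2:**
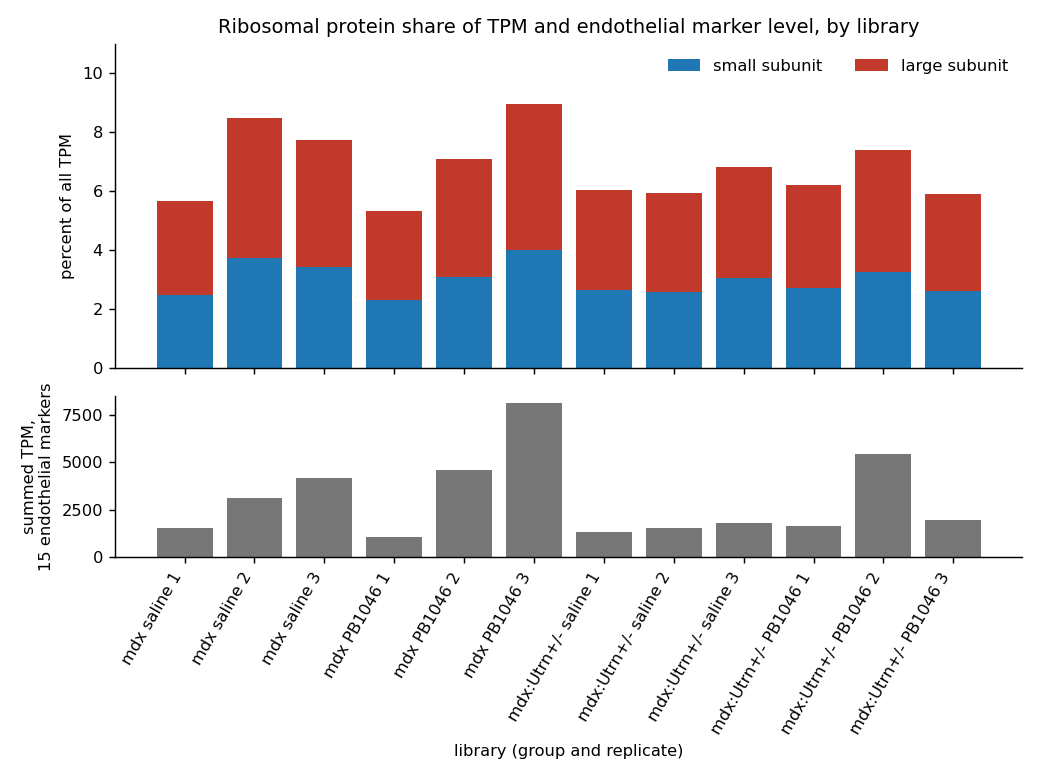
Upper panel: share of all TPM taken by small subunit (blue) and large subunit (red) ribosomal protein genes in each of 12 libraries. Lower panel: summed TPM of 15 endothelial markers in the same libraries, with high bars in the 5 libraries whose ribosomal protein share is at least 7.09%.

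The groups set PB1046 against saline in each genotype and the genotypes against each other in each treatment, and no ribosomal protein gene passed the threshold in any comparison. Levels for testing were TPM divided by the scaling factor, on the log2(TPM + 1) scale, in limma over all 12 libraries, with Benjamini-Hochberg adjusted p under 0.05 as the threshold. In each of the 7 comparisons 0 of 79 members were called, beside 0% of all 12798 genes. At an unadjusted p under 0.05 the count of members was again 0 in every comparison, beside 3.09% of all genes for PB1046 in mdx, 2.06% for PB1046 in mdx:Utrn+/-, 4.15% for genotype under saline, 1.67% for genotype under PB1046, 2.28% for the difference between the PB1046 responses, 2.57% for PB1046 averaged over genotypes and 3.70% for genotype averaged over treatments. By limma-voom on recovered reads, 0 members passed the adjusted threshold too. A member's 95% interval reached a median of 0.47 to either side on the log2 scale in a comparison of 2 groups, from 0.34 for Rpl22 to 0.95 for Rps4l, before any adjustment over genes.

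In mdx, most members had lower values with PB1046 than with saline, by small amounts: 76 of 79 were lower and 3 higher on the scaled values, beside 48.9% of all genes lower and 51.1% higher, with a median log2 change of -0.18 in members and 0.01 in all genes. The small subunit (31 of 32 lower, median -0.19) and the large subunit (45 of 47 lower, median -0.17) did the same. The libraries of each group lay on both sides: the members' median deviation was -0.16, 0.20 and 0.16 in saline replicates 1 to 3 and -0.23, -0.22 and 0.12 in PB1046 replicates 1 to 3, and the pooled SD within groups was 0.16. Without saline replicate 1 the median was -0.32 and 10 members (12.7%) had an unadjusted p under 0.05, beside 4.09% of the 12758 genes tested in that fit, and 0 an adjusted one. The median was, without saline replicate 2 -0.09, without PB1046 replicate 1 -0.11 and without PB1046 replicate 3 -0.30. On TPM as deposited the split was 36 higher and 43 lower, with a median of -0.02 beside 0.14 in all genes, so that members lay 0.17 below all genes where they lay 0.18 below them on the scaled values. With the trends of each library over gene length and level removed, the split turned to 61 higher and 18 lower, with a median of 0.11.
Marker genes of cell types also differed in this comparison on the scaled values, with 0 genes called. Cardiomyocyte markers were lower in 15 of 16 (median -0.31; summed 146719 to 149603 TPM in saline, 115382 to 152891 TPM in PB1046). Higher were 13 of 14 fibroblast markers (median 0.54; 408 to 1263 and 773 to 1942 TPM), 16 of 17 macrophage markers (0.46; 160 to 964 and 401 to 1159 TPM), 9 of 10 smooth muscle and pericyte markers (0.47; 175 to 251 and 252 to 450 TPM), 5 of 5 erythroid markers (1.93; 19.1 to 99.2 and 73.7 to 1098 TPM) and 3 of 3 lymphocyte markers. Endothelial markers were higher in 8 of 15 (1547 to 4195 and 1089 to 8119 TPM). Apart from the fit with the endothelial level as a term, given further on, their part in the members' values was not tested.

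Rpl24, a large subunit protein that bridges the subunits, had the smallest p of the members in this comparison. It was 987, 1186 and 1174 TPM in saline and 759, 922 and 1056 TPM in PB1046, so the TPM as deposited overlapped, while the scaled values did not. Its log2 change was -0.45 ± 0.21 (SE), with an interval of -0.91 to 0.01 and an adjusted p of 1.0 in limma. Rps29, a small protein of the small subunit, was 1697, 2620 and 2587 TPM in saline and 1561, 1872 and 2195 TPM in PB1046. Its log2 change was -0.43 ± 0.22 (SE), with an adjusted p of 1.0 in limma. Rps25, a small subunit protein used by some internal ribosome entry sites, was 882, 979 and 944 TPM in saline and 609, 805 and 991 TPM in PB1046. Its log2 change was -0.40 ± 0.21 (SE), with an adjusted p of 1.0 in limma.
In TPM, PB1046 replicate 3 lay within the range of saline for Rpl24 and Rps29 and above it for Rps25, and replicate 2 lay within it for Rps29. The 3 members with higher values were Rps4l (0.52 ± 0.44, SE), Rpl3l (0.06 ± 0.30, SE) and Rpl15 (0.02 ± 0.17, SE), a core protein of the large subunit.

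Some members had groups that did not overlap. On scaled values 6 of 79 members were lower in every PB1046 library than in every saline library of mdx (Rpl24, Rpl27, Rps13, Rps2, Rps25 and Rps27l). This was so for 530 of 12798 genes in all (4.14%). Higher without overlap were 0 members, beside 4.23% of all genes. As deposited, only Rps27l kept this order, beside 2.06% of all genes. Rps27l, a paralog of Rps27 that p53 induces, was 342, 245 and 250 TPM in saline and 209, 235 and 214 TPM in PB1046, and its log2 change was -0.48 ± 0.32 (SE), with an adjusted p of 1.0 in limma.

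In mdx:Utrn+/-, members again had mostly lower values with PB1046 on the scaled scale, with 67 lower and 12 higher, beside 52.9% of all genes lower and 47.1% higher, and a median of -0.11 against -0.02 in all genes. On TPM as deposited the split was the other way, 62 higher and 17 lower with a median of 0.09, while all genes had a median of 0.15. With length and level trends removed it was 62 higher and 17 lower, median 0.09. With upper-quartile scaling it was 20 higher and 59 lower, median -0.07. Without saline replicate 3 the scaled split was 36 higher and 43 lower, with a median of -0.01. The members' median deviation was 0.04, -0.02 and 0.22 in saline and 0.11, -0.10 and -0.05 in PB1046.
Beside this, 15 of 15 endothelial markers were higher with PB1046 (median 0.56; summed 1327 to 1821 TPM in saline, 1636 to 5422 TPM in PB1046) and 5 of 5 erythroid markers were higher (0.69; 36.1 to 290 and 72.6 to 784 TPM). Lower were 17 of 17 macrophage markers (-0.49; 222 to 1201 and 219 to 544 TPM), 13 of 14 fibroblast markers (-0.27; 354 to 745 and 445 to 597 TPM), 12 of 16 cardiomyocyte markers (-0.11; 140316 to 158176 and 144358 to 152279 TPM), 7 of 10 smooth muscle and pericyte markers and 3 of 3 lymphocyte markers. Of these, only the endothelial level was put into a fit.

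Rpl29, a large subunit protein that also binds heparin, was 649, 597 and 659 TPM in saline and 574, 680 and 558 TPM in PB1046. The groups overlapped in TPM, and the log2 change on the scaled values was -0.27 ± 0.18 (SE), with an adjusted p of 0.997 in limma. Rpl41 was 2714, 2503 and 2148 TPM in saline and 2405, 2554 and 1627 TPM in PB1046, a log2 change of -0.38 ± 0.29 (SE). Rps13 was 1041, 937 and 1008 TPM in saline and 1026, 886 and 901 TPM in PB1046, a log2 change of -0.28 ± 0.21 (SE).
Higher with PB1046 were Rps4l (0.33 ± 0.44, SE), Rpl3l (0.21 ± 0.30, SE) and Rps2 (0.10 ± 0.19, SE), a protein at the entry of the messenger RNA channel. On scaled values 5 of 79 members did not overlap and were lower (Rpl13, Rpl29, Rpl3, Rpl6 and Rpl7), beside 373 of 12798 genes in all (2.91%). Higher without overlap were 0 members, beside 2.77% of all genes. In unscaled TPM 0 members had groups apart, beside 5.14% of all genes higher and 1.06% lower.

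Between the genotypes under saline, members were split about evenly, with 42 higher and 37 lower in mdx:Utrn+/-, beside 54.7% of all genes higher and 45.3% lower, and a median log2 change of 0.02 against 0.03 in all genes. Before scaling, 73 members were lower and 6 higher, with a median of -0.25, while the median of all genes was -0.20. With length and level trends removed 74 were lower, with a median of -0.24, and with upper-quartile scaling 56 were lower, with a median of -0.08 beside -0.06 in all genes. The median was -0.09 without mdx saline replicate 1 and 0.08 without mdx saline replicate 2.
In this comparison 15 of 15 endothelial markers were lower in mdx:Utrn+/- (median -0.59), while 17 of 17 macrophage markers (0.43), 5 of 5 erythroid (1.28), 3 of 3 lymphocyte, 12 of 16 cardiomyocyte (0.17), 8 of 14 fibroblast and 6 of 10 smooth muscle and pericyte markers were higher. The summed levels are those given above for the saline groups.
The higher members with the smallest p were Rps13, Rpsa and Rps4l. Rps13 was 924, 996 and 967 TPM in the mdx libraries and 1041, 937 and 1008 TPM in mdx:Utrn+/-, a log2 change of 0.32 ± 0.21 (SE) with an adjusted p of 0.837 in limma. It was the only member whose scaled groups lay apart and higher, beside 5.81% of all genes, and 0 lay apart and lower, beside 3.97%. In TPM before scaling 0 members lay apart and higher, beside 0.703% of all genes, and 4 apart and lower, beside 15.1%. Rpsa, the laminin receptor precursor of the small subunit, was 661, 1221 and 976 TPM in the mdx libraries and 1166, 1263 and 743 TPM in mdx:Utrn+/-, with overlapping groups and a log2 change of 0.43 ± 0.30 (SE). Rplp0, the scaffold of the stalk and a frequent reference gene, was among the lower members with the smallest p, at 913, 1076 and 821 TPM in the mdx libraries and 554, 591 and 981 TPM in mdx:Utrn+/-, a log2 change of -0.17 ± 0.24 (SE). The groups overlapped. Rpl5, which binds the 5S ribosomal RNA, had a log2 change of -0.15 ± 0.20 (SE).

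Between the genotypes under PB1046, 65 members were higher and 14 lower in mdx:Utrn+/- on scaled values, beside 50.7% of all genes higher and 49.3% lower, with medians of 0.10 and 0.00. On TPM as deposited 13 were higher and 66 lower, with a median of -0.13 in members and -0.20 in all genes, so members lay 0.07 above all genes and 0.10 above them on the scaled values. With upper-quartile scaling 53 were higher and 26 lower. With length and level trends removed 76 were lower, with a median of -0.25. Without mdx PB1046 replicate 1 the median was 0.03, and without mdx PB1046 replicate 3 it was 0.21.
Here 16 of 16 cardiomyocyte markers were higher in mdx:Utrn+/- (median 0.32), and 14 of 14 fibroblast markers (-0.71), 16 of 17 macrophage markers (-0.47), 9 of 10 smooth muscle and pericyte markers (-0.46), 11 of 15 endothelial markers (-0.06), 4 of 5 erythroid markers and 3 of 3 lymphocyte markers were lower, with the summed levels given above for the PB1046 groups.
Rps29 (1561, 1872 and 2195 TPM in mdx against 2025, 2169 and 1854 TPM) and Rpl24 (759, 922 and 1056 against 940, 1012 and 958 TPM) had the smallest p. They overlapped in TPM and were apart on the scaled values, with log2 changes of 0.35 ± 0.22 and 0.33 ± 0.21 (SE). In all, 3 of 79 members were apart and higher, beside 2.48% of all genes, and 0 were apart and lower, beside 3.33%. In TPM before scaling 0 members were apart in either direction, beside 0.922% of all genes higher and 6.33% lower. Rpl12 and Rpl10, proteins of the large subunit, had log2 changes of -0.09 ± 0.20 and -0.04 ± 0.20 (SE).

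The difference between the PB1046 responses of the genotypes was tested as an interaction, and 0 members passed it. On scaled values 52 were higher and 27 lower, beside 46% of all genes higher and 54% lower, with a median of 0.06. Rpl24 (0.41 ± 0.30, SE), Rps27l (0.53 ± 0.45, SE) and Rps25 (0.36 ± 0.30, SE) were the higher ones with the smallest p, and Rpsa (-0.35 ± 0.42, SE), Rps15 (-0.26 ± 0.45, SE) and Rpl29 (-0.14 ± 0.26, SE) the lower ones. The median was -0.01 with the endothelial marker level as a term, with length and level trends removed, and when either saline replicate 2 or PB1046 replicate 1 of mdx was left out. It was -0.10 without the 3 libraries of lowest library number, which are replicate 1 of mdx with PB1046 and of both mdx:Utrn+/- groups.
Averaged over genotypes, 73 members were lower and 6 higher with PB1046, beside 51.5% of all genes lower and 48.5% higher, with a median of -0.15 on scaled values and 0.02 on TPM as deposited (44 higher, 35 lower). Averaged over treatments, 60 were higher and 19 lower in mdx:Utrn+/-, beside 51% of all genes higher and 49% lower, with a median of 0.08 on scaled values, -0.18 on TPM as deposited and -0.001 with upper-quartile scaling (39 higher, 40 lower). These averages and the comparisons above share libraries and are not separate evidence.

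**Figure D3:**
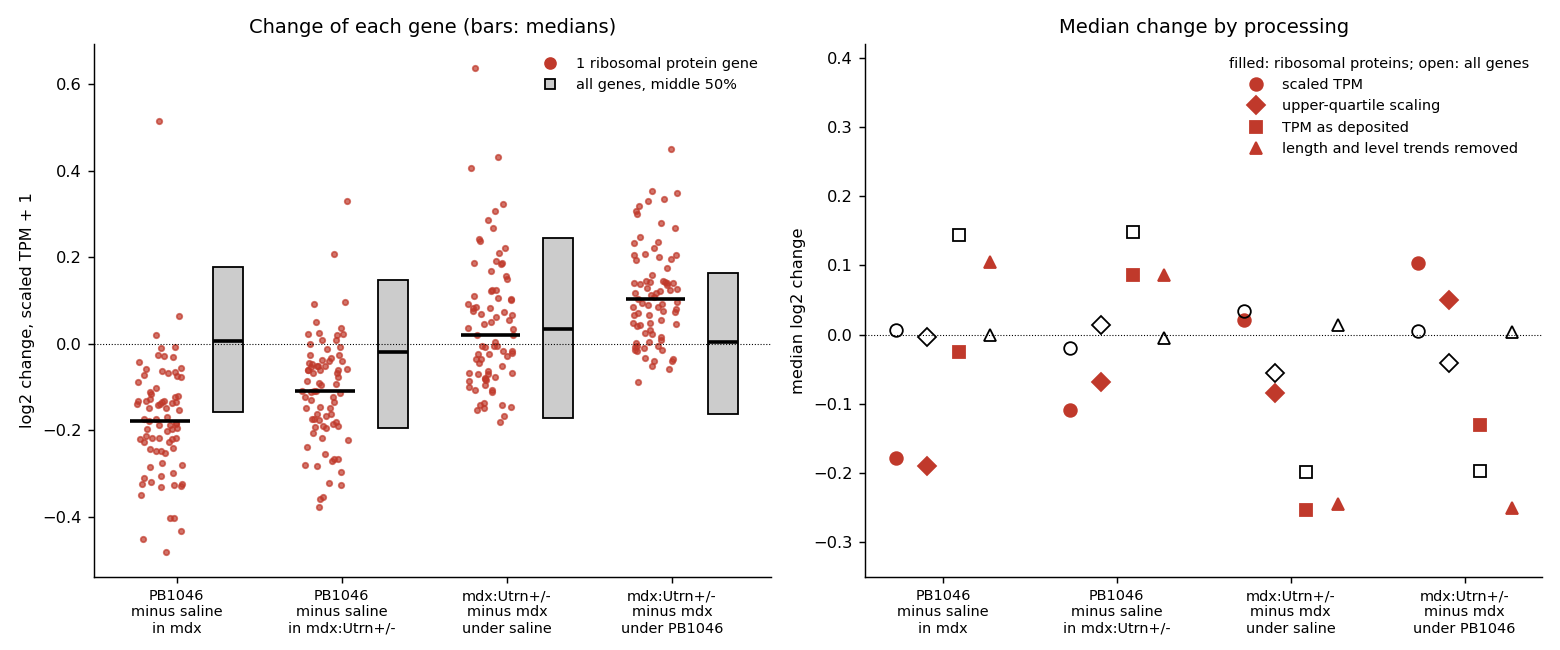
Left: log2 change of each of the 79 ribosomal protein genes (red points, with their median as a bar) in 4 comparisons, beside the middle 50% and median of all 12798 genes (grey boxes). Right: median change of ribosomal proteins (filled) and of all genes (open) under 4 ways of processing; the members' median for PB1046 in mdx goes from -0.18 on scaled TPM to 0.11 with length and level trends removed.

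The labels carry library numbers whose meaning is not given, and these were used to set libraries of like number side by side. Among the 4 mdx libraries of highest number, 2 per treatment, 67 members were lower with PB1046 and 12 higher, with a median of -0.27, and 22 members (27.8%) had an unadjusted p under 0.05, beside 13.4% of the 12214 genes tested in that fit. Among the 4 mdx:Utrn+/- libraries of middle number, 2 per treatment, 73 were lower and 6 higher, with a median of -0.18. There 0 members had an unadjusted p under 0.05, beside 2.04% of the 11692 genes tested in that fit. Without the 3 libraries of lowest number, the median for genotype under PB1046 was -0.07, with 27 members higher and 52 lower.
With the endothelial marker level as a term, the medians were -0.19 for PB1046 in mdx, -0.18 for PB1046 in mdx:Utrn+/-, 0.13 for genotype under saline and 0.12 for genotype under PB1046. With log2 Rn45s as a term they were -0.23, -0.10, 0.01 and 0.14. By adjusted p, 0 members were called in these fits.

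The authors' deposited table gives its own comparisons of the groups. In it 0 of 18530 genes had a false discovery rate under 0.05 in any of 6 comparisons, and the lowest false discovery rate of any gene was 0.3004. For mdx, the authors' deposited table has 76 members lower and 3 higher with PB1046 than with saline, and the smallest p-value of a member was 0.0997, for Rpl24. For mdx:Utrn+/-, the authors' deposited table has 66 members higher with saline than with PB1046 and 13 lower, and the smallest p-value was 0.280, for Rpsa. Comparing mdx with saline against mdx:Utrn+/- with PB1046, the authors' deposited table holds 1 member with a p-value under 0.05, Rps4l at 0.0313, with a false discovery rate of 1.0.

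Members varied together across the 12 libraries. The median Pearson correlation over the 3081 pairs of members was 0.58, against 0.70 among 77 mitochondrial ribosomal proteins and 0.69 among 31 proteasome subunits. Over pairs of all genes tested it was -0.0036. These are descriptions over 12 libraries of differing depth, composition and group. Rpl36a, Rpl27a and Rpl28 followed the mean of the other members most closely, at 0.95, 0.93 and 0.93. The lowest correlations with that mean were those of Rpl3l (-0.36), Rps4l (-0.35) and Rpl15 (-0.30), followed by Rpl23a (-0.01) and Rps27l (0.02). Whether these correlations differ from 0 was not tested. Within groups the members were less variable than most genes: their median residual SD was 0.22 on the log2 scale, against 0.32 in all genes, and 64 of 79 lay below the latter. The comparison was not matched for level, which had a median of 853 TPM in members and 10.7 TPM in all genes. The largest residual SDs were those of Rps4l (0.62), Rps12 (0.43) and Rps27l (0.43).

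A first component held 54.3% of the members' variance over libraries and a second 23.8%. The second set one block of members against another. With low loadings came Rps4l, Rpl3l, Rpsa, Rps15 and Rpl41, and with high loadings Rps27l, Rplp0, Rpl7a, Rpl37 and Rps25. Rps15, a protein near the decoding site, was 1254 TPM in mdx with saline 1 and 2637 and 2424 TPM in its other libraries. Rps12, a small subunit protein, was 769 TPM in the same library and 1962 and 1703 TPM in the others. In mdx:Utrn+/- with PB1046, Rps15 was 2349, 2400 and 1432 TPM and Rps12 was 1185, 1654 and 857 TPM. Replicate 3 was lowest for both. Rps15 loaded 0.19 on the first component and -0.21 on the second, and Rps12 0.19 and -0.09. On the first component mdx with saline 1 scored -2.59 and mdx:Utrn+/- with PB1046 3 scored -1.59. There mdx with PB1046 1 and 2 were also low, at -1.86 and -2.14. In mdx:Utrn+/- with saline 3, highest on the second component, both genes were near their means (-0.04 each on scaled log2 values).
The library scores on the second component were 1.92 in mdx:Utrn+/- with saline 3, 1.07 in mdx with saline 1 and 0.95 in mdx:Utrn+/- with PB1046 3, against -1.50 to 0.64 in the other 9. These 3 libraries were also the deepest, with 22546257 to 25458194 reads against 7234100 to 19290414, and had the least Rn45s, the precursor of ribosomal RNA, at 1039 to 1708 TPM against 7611 to 42106 TPM. They belong to 3 different groups. The part of depth or of ribosomal RNA carryover in the pattern was not tested.

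**Figure D4:**
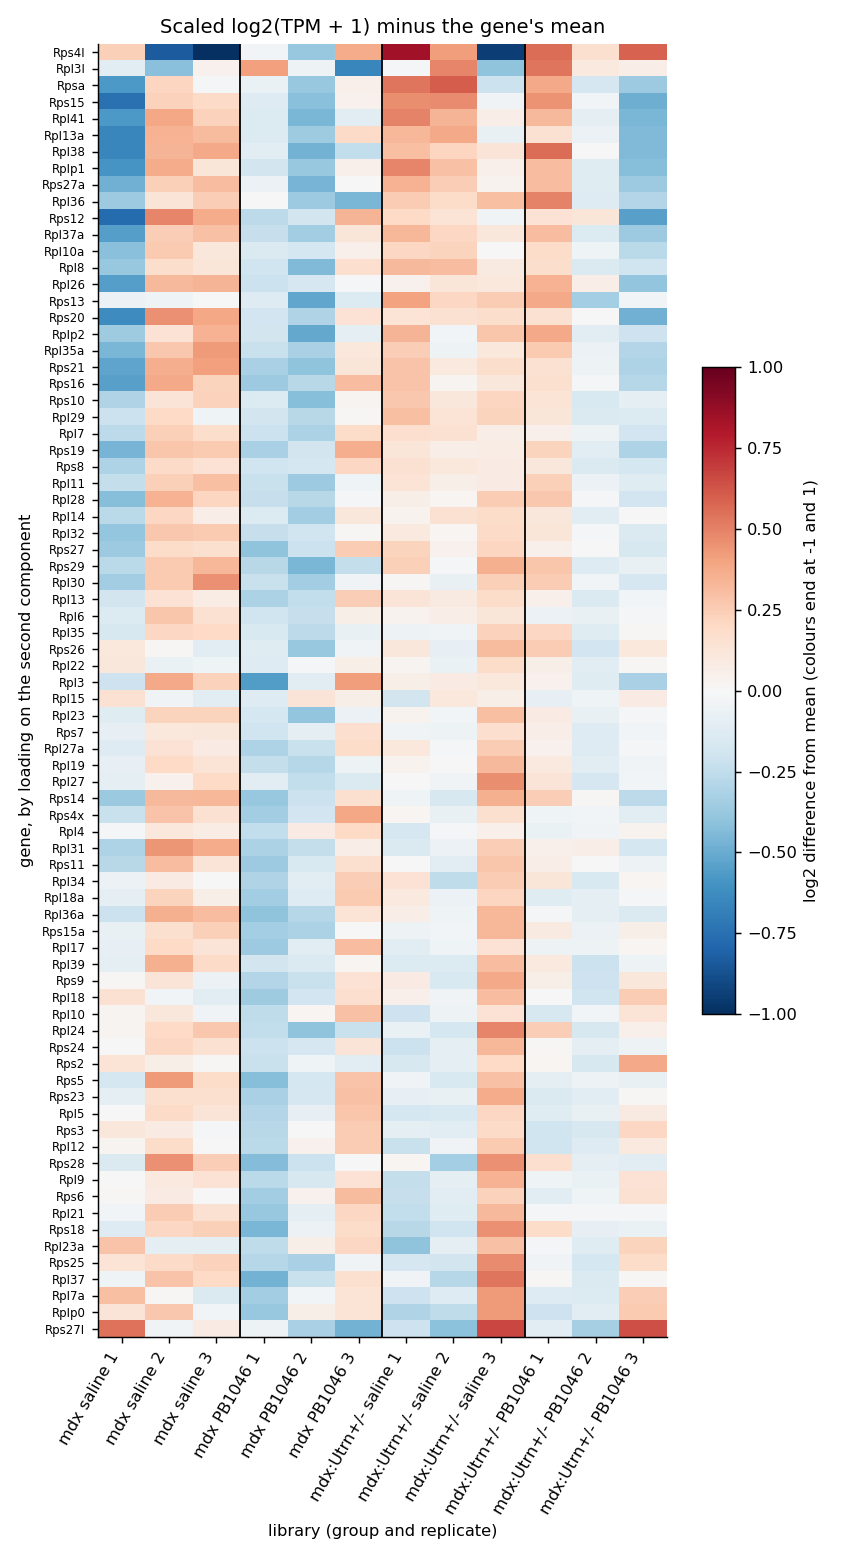
Scaled log2(TPM + 1) of each ribosomal protein gene shown minus the gene's mean over 12 libraries (red higher, blue lower; colours end at -1 and 1), with genes ordered by their loading on the second component and black lines between groups. mdx with saline 1 and mdx:Utrn+/- with PB1046 3 lie below the mean for the genes from Rpsa to Rps20 and above it for Rps27l, whose deviations there are 0.54 and 0.64.

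The stalk of the large subunit, which recruits translation factors, is made of Rplp0 with copies of Rplp1 and Rplp2. Rplp1 was 1801, 3753 and 2971 TPM in mdx with saline, 2213, 2621 and 3568 TPM in mdx with PB1046, 3112, 2807 and 2459 TPM in mdx:Utrn+/- with saline, and 2752, 2907 and 1927 TPM in mdx:Utrn+/- with PB1046. Rplp1 over Rplp0 ranged from 1.97 in mdx with saline 1 to 5.62 in mdx:Utrn+/- with saline 1. The group means were 3.03 ± 0.91, 3.06 ± 0.66, 4.29 ± 1.61 and 3.30 ± 1.31 (SD, n = 3 each), in the same order of groups. The groups overlapped. Rplp2 over Rplp0 was 1.18 ± 0.36, 1.08 ± 0.29, 1.47 ± 0.40 and 1.30 ± 0.47 (SD, n = 3 each). In limma the largest log2 change of the stalk genes in a comparison of 2 groups was that of Rplp1 with PB1046 in mdx:Utrn+/-, -0.35 ± 0.28 (SE), with an adjusted p of 0.997.

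Rps6, the small subunit protein that S6 kinase phosphorylates below mTORC1, was 453, 509 and 452 TPM in mdx with saline, 327, 583 and 710 TPM in mdx with PB1046, 313, 350 and 463 TPM in mdx:Utrn+/- with saline and 340, 506 and 478 TPM in mdx:Utrn+/- with PB1046. The groups overlapped, and its log2 changes in the comparisons of 2 groups lay between -0.07 and 0.04, each with an SE of 0.21. Its phosphorylation was not measured. Rps27a, which is made as a fusion with ubiquitin, was at 1106 ± 319, 1053 ± 219, 1009 ± 77.2 and 970 ± 183 TPM (SD, n = 3 each). Rpl39, a small protein that lines the exit tunnel, was at 806 ± 153, 757 ± 168, 608 ± 134 and 654 ± 46.4 TPM (SD, n = 3 each). Rps4x, encoded on the X chromosome, was at 1324 ± 270, 1411 ± 569, 1057 ± 117 and 1142 ± 218 TPM (SD, n = 3 each). Rpl22 was at 112 ± 6.01, 124 ± 27.8, 96.0 ± 11.2 and 105 ± 12.1 TPM (SD, n = 3 each). For these genes the groups overlapped in TPM in every comparison.

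Rpl3 and its muscle paralog Rpl3l encode alternative forms of the same protein next to the peptidyl transferase centre. Rpl3 was 333, 534 and 454 TPM in mdx with saline, 242, 448 and 651 TPM in mdx with PB1046, 328, 343 and 363 TPM in mdx:Utrn+/- with saline and 325, 410 and 292 TPM in mdx:Utrn+/- with PB1046. Rpl3l was 308, 266 and 346 TPM, then 410, 405 and 269 TPM, then 271, 395 and 221 TPM, then 396, 416 and 332 TPM. In all comparisons the groups overlapped in TPM for both genes. Both extremes of Rpl3 were in mdx with PB1046: replicate 3 had 651 TPM of Rpl3 and 269 TPM of Rpl3l, and replicate 1 had 242 TPM of Rpl3 and 410 TPM of Rpl3l.
Rpl3l made up 48.0%, 33.3% and 43.3% of the TPM of the pair in mdx with saline, 62.9%, 47.5% and 29.2% in mdx with PB1046, 45.3%, 53.5% and 37.8% in mdx:Utrn+/- with saline and 55.0%, 50.3% and 53.2% in mdx:Utrn+/- with PB1046. The means were 41.5% ± 7.53, 46.5% ± 16.9, 45.5% ± 7.83 and 52.8% ± 2.34 (SD, n = 3 each). Two-sided exact permutation tests of the share gave p of 0.7 for PB1046 in mdx, 0.3 for it in mdx:Utrn+/-, 0.5 and 0.7 for genotype under saline and PB1046, and 0.4 for genotype over both treatments. All 5 were 0.7 after Benjamini-Hochberg adjustment. With 3 libraries against 3 the smallest possible p is 0.1, and over both treatments it is 0.005. The library with the highest endothelial marker level, mdx with PB1046 3 at 8119 TPM, had the lowest Rpl3l share. The library with the lowest level, mdx with PB1046 1 at 1089 TPM, had the highest share. Libraries between these extremes did not all keep this order. In mdx:Utrn+/- with PB1046 2, at 5422 TPM, the share was 50.3%, above the 37.8% of mdx:Utrn+/- with saline 3, at 1821 TPM. The part of other cell types in this share was not tested.

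Rps27l over Rps27 was 0.57, 0.26 and 0.29 in mdx with saline, 0.38, 0.28 and 0.18 in mdx with PB1046, 0.22, 0.22 and 0.41 in mdx:Utrn+/- with saline and 0.27, 0.24 and 0.53 in mdx:Utrn+/- with PB1046. The highest values, 0.41 to 0.57, were in the 3 deepest libraries named above, and the other 9 were at 0.18 to 0.38. Rps4l over Rps4x was 0.025 ± 0.018, 0.034 ± 0.006, 0.040 ± 0.023 and 0.047 ± 0.008 (SD, n = 3 each). Rps4l itself was 46.8, 23.3 and 19.4 TPM in mdx with saline and 58.8, 45.0 and 17.6 TPM in mdx:Utrn+/- with saline, and between these groups it had a log2 change of 0.64 ± 0.44 (SE) in limma, with an adjusted p of 0.837. Its intervals were the widest of the members.

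**Figure D5:**
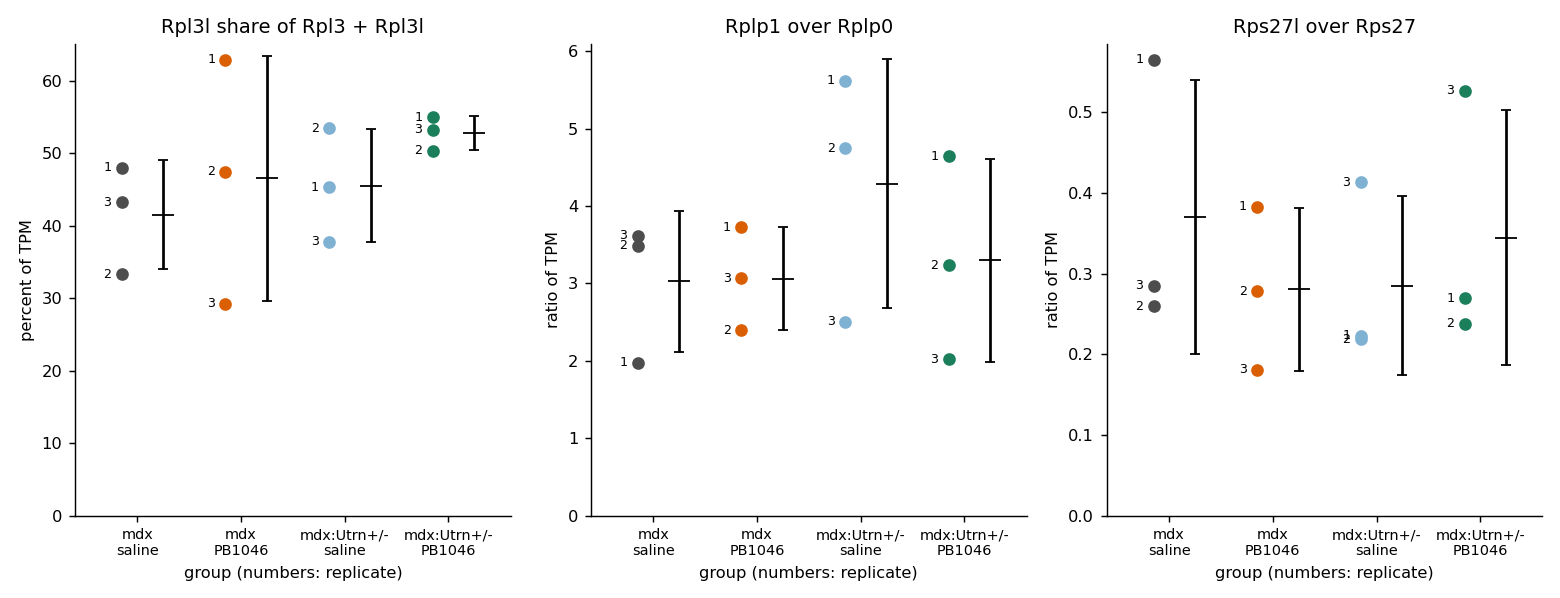
Rpl3l as a percent of Rpl3 plus Rpl3l (left), Rplp1 over Rplp0 (middle) and Rps27l over Rps27 (right), each from TPM as deposited, by group; points are libraries numbered by replicate, and bars are the mean and SD of 3. The groups set against each other in the comparisons overlap in each panel. The Rpl3l share of mdx with saline (highest 48.0%) lies below that of mdx:Utrn+/- with PB1046 (lowest 50.3%), a difference that was not tested. The share of mdx with PB1046 spans 29.2% to 62.9%.

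Ribosomal protein genes whose symbols fall outside the rule gave 8 tested genes. Rps27rt, which counted nearly the same reads as the member Rps27, was among them and is not separate from the members. Of these 8 genes 7 were lower with PB1046 in mdx (median -0.14) and 7 in mdx:Utrn+/- (median -0.14), while 6 were higher in mdx:Utrn+/- under saline and 8 under PB1046 (medians 0.12 and 0.06). None was called.

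Other genes of translation and related complexes were listed with earlier results of these data known, and 0 of their genes passed the threshold in any comparison. Among 24 translation factors and other genes of the same pyrimidine-tract class, 17 were lower with PB1046 in mdx (median -0.09) and 17 in mdx:Utrn+/- (median -0.05), and 12 and 14 were higher in mdx:Utrn+/- under saline and PB1046 (medians -0.001 and 0.07). Snhg1, a host of small nucleolar RNAs, was 60.2, 56.4 and 60.3 TPM in mdx with saline and 32.2, 49.99 and 56.1 TPM in mdx with PB1046, a log2 change of -0.54 ± 0.21 (SE) with an adjusted p of 1.0 in limma.
Among 40 ribosome biogenesis genes, 14 were lower with PB1046 in mdx (median 0.04) and 20 in mdx:Utrn+/- (median -0.01), and 27 and 26 were higher in mdx:Utrn+/- under saline and PB1046 (medians 0.15 and 0.07). Among 26 genes of mTORC1 and translational control, 13 were lower with PB1046 in mdx (median -0.001) and 12 in mdx:Utrn+/- (median 0.04), and 16 and 15 were higher in mdx:Utrn+/- (medians 0.06 and 0.02). Ddit4, an inhibitor of mTORC1, was 22.6, 56.9 and 15.2 TPM in mdx with saline and 49.8, 156 and 102 TPM in mdx with PB1046, with overlapping groups, a log2 change of 1.58 ± 0.53 (SE) and an adjusted p of 1.0 in limma. Eif4ebp2, a repressor of cap-dependent translation, was 4.29, 6.19 and 6.86 TPM in mdx with saline and 7.95, 22.9 and 13.1 TPM in mdx with PB1046. These groups did not overlap in TPM, beside 6.56% of all genes that were higher without overlap. The log2 change was 0.96 ± 0.35 (SE), with an adjusted p of 1.0 in limma. Ddit4 and Eif4ebp2 were picked from the 26 genes by their small unadjusted p. In mdx:Utrn+/- the log2 changes of the 26 genes with PB1046 lay between -0.52 and 0.32.

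Mitochondrial ribosomal proteins build the separate ribosome of the mitochondrion. Of 77 genes, 70 and 62 were lower with PB1046 in mdx and mdx:Utrn+/- (medians -0.22 and -0.14), and 64 and 77 were higher in mdx:Utrn+/- under saline and PB1046 (medians 0.22 and 0.34), where the cytosolic medians were 0.02 and 0.10. Proteasome subunits, 31 genes, had 24 and 21 lower with PB1046 (medians -0.15 and -0.11) and 28 and 30 higher in mdx:Utrn+/- (medians 0.22 and 0.24). Neither the lists' medians nor the difference between lists was tested. In the 5 libraries with the highest endothelial marker level, mitochondrial ribosomal proteins summed to 10145 to 11697 TPM, while cytosolic ones summed to 70917 to 89706 TPM, and the other 7 had 11385 to 12191 TPM of the former and 53253 to 68246 TPM of the latter.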

How the data were processed

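Poly-A RNA-seq was available for 12 libraries in 4 groups of 3, grouped by the labels. The values are TPM as deposited by the authors, although the table is named as raw counts: every library sums to the same total. Whole reads recovered from them gave 100% of values within 0.1 reads of a whole number, at 7234100 to 25458194 reads per library. The authors' own comparisons in the table give log2 fold changes, a likelihood-ratio score, p-values and false discovery rates, per the file headers, and edgeR is named in the submitters' processing notes, with no version. The build is mm10, per the same notes. The aligner, the counter and its strand setting are not stated by the labels.

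TPM was divided by a trimmed-mean factor computed across libraries (30% of ratios and 5% of levels trimmed), genes with at least 1 TPM in 3 libraries were kept, and log2(TPM + 1) was fitted in limma 3.58.1 (R 4.3.3) with trend and robust moderation and 8 residual degrees of freedom. Because the unit is TPM, no count test was used as the main test, and limma-voom on recovered reads was an alternative. A fold change on this scale understates the change of low genes. Adjusted p are Benjamini-Hochberg values over all genes tested. Fits were tested on simulated data in which genes varied independently and some changed strongly in a single group. Small changes shared by many genes were not simulated.

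Genes are named by role in the ribosome, by highest and lowest level, by the 3 lowest p in each direction and by residual SD. Others were named after their values were seen. Members, lists and this rule were chosen with earlier results of these data known. Same-numbered libraries of different groups were not treated as pairs, since their deviations correlated at -0.44 to 0.49 and not all above 0.1. Promoter windows are from RefSeq (GRCm38.p6), and small nucleolar RNA genes from GENCODE vM21. Plots used matplotlib 3.10.9 and tables pandas 2.3.3. Some single genes are not reported here by name or drawn by name, and they stay in the counts and sums.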

Additional observations from a re-analysis of the deposited data

How the results depend on the processing

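By adjusted p, 0 members were called in every comparison and alternative, and over the fits that leave out a single library. Over those, the members' median was -0.32 to -0.09 for PB1046 in mdx, -0.16 to -0.01 for PB1046 in mdx:Utrn+/-, -0.09 to 0.08 for genotype under saline, 0.03 to 0.21 for genotype under PB1046, -0.01 to 0.21 for the difference of responses, -0.24 to -0.11 for PB1046 averaged and 0.01 to 0.12 for genotype averaged. On TPM as deposited the medians were 0.086 for PB1046 in mdx:Utrn+/-, -0.25 and -0.13 for genotype under saline and PB1046, 0.020 for PB1046 averaged and -0.18 for genotype averaged. With length and level trends removed they were 0.11 for PB1046 in mdx, 0.086 for it in mdx:Utrn+/-, -0.24 and -0.25 for genotype under saline and PB1046, 0.080 for PB1046 averaged and -0.24 for genotype averaged. Ribosomal proteins are short and abundant, so this alternative takes off the part of each library's level that goes with those properties. Without the 3 lowest library numbers, the median was -0.071 for genotype under PB1046 and -0.10 for the difference of responses. The medians in these sentences on TPM as deposited, removed trends and library numbers all have the sign opposite to the reported one. On TPM as deposited the median of all genes moved in the same direction as that of the members, as given above for each comparison of 2 groups. Apart from the construction named, the cause was not tested.

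Summed TPM over single left-out libraries was 67095 to 81103 in mdx with saline, 62085 to 80311 in mdx with PB1046, 59866 to 64276 in mdx:Utrn+/- with saline and 60557 to 67993 in mdx:Utrn+/- with PB1046. Without the 5 highest members it was 51772 and 54643 TPM in the mdx:Utrn+/- groups, by construction lower. The difference in Rpl3l share ranged from -3.18 to 13.7 points for PB1046 in mdx, 3.45 to 11.3 for PB1046 in mdx:Utrn+/-, -0.11 to 7.87 for genotype under saline, -2.34 to 14.5 for genotype under PB1046 and 0.835 to 9.25 over both treatments. It changed sign to -3.18 without mdx PB1046 replicate 1, to -0.11 without mdx saline replicate 2 and to -2.34 without mdx PB1046 replicate 3.

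With the replicate number as a block, 0 members were called and the median for PB1046 in mdx was -0.18, and no other call changed. The numbers were not taken to pair the libraries, since not every correlation was above 0.1: correlations of same-numbered libraries' deviations were 0.01 to 0.49, -0.12 to 0.39 and -0.44 to 0.21 for replicates 1, 2 and 3. The fit on only the libraries of a comparison gives no value for the difference and the averages. The table lists 0 mitochondrially encoded genes, so leaving those out removed only Rn45s. The endothelial term, the library-number alternatives and the summed TPM over left-out libraries were chosen after seeing the data. With 3 libraries a group, the unadjusted 95% interval of a member reached 0.34 to 0.95 to either side in a comparison of 2 groups, with a median of 0.47.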
